A study of Mus musculus with 12 samples.

Results

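The nuclear genes of the mitochondrial respiratory chain were followed in colon mucosa of 12 bone marrow chimeric mice, with 1 mouse per single-colour Agilent array. The members were all genes whose probe symbol began with Ndufa, Ndufb, Ndufc, Ndufs or Ndufv and a digit, was Sdha, Sdhb, Sdhc or Sdhd, or began with Uqcr, Cox4 to Cox8 or Atp5. That rule found 82 genes on the array, of which 78 were measured among 23614 genes tested: 35 of complex I, 3 of complex II, 7 of complex III, 16 of complex IV and 17 of complex V. Every recipient was a wild-type C57BL/6 mouse. KO_AOMDSS and KO_untreated mice carried C57BL/6 marrow in which Muc1 was knocked out, and WT_AOMDSS and WT_untreated mice carried wild-type C57BL/6 marrow, so the knockout reached the blood cells and not the epithelium. Muc1 encodes a transmembrane mucin. The AOMDSS mice received 12.5 mg/kg of the colon carcinogen azoxymethane (AOM) and, starting 5 days afterwards, dextran sodium sulfate (DSS), which injures the colon lining. DSS was given in water at 2% for 4 days with 14 days of plain water, then the same again, then at 2.5% for 5 days, and the colon was taken 1 day later. There were 3 mice in each of the 4 groups, and no age is used here.

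The respiratory chain passes electrons from NADH (complex I) and succinate (complex II) through complex III to oxygen at complex IV, and complex V uses the proton gradient so built to make ATP. Most subunits are encoded in the nucleus and imported, while a small core is encoded in mitochondrial DNA. Colonocytes near the surface of the healthy colon are known for oxidising butyrate in their mitochondria, and several complex IV subunits exist as alternative isoforms that are typical of muscle, lung or testis.

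All levels below are log2 processed signals minus the 75th percentile of the same array, so that a level of 0 equals that percentile, and a change is a difference of such levels. The arrays lay on 3 slides. KO_AOMDSS 1 and 2 and WT_AOMDSS 1 and 2 shared slide 3, the only one scanned on the second day. KO_AOMDSS 3, WT_AOMDSS 3 and KO_untreated 2 and 3 shared slide 2. KO_untreated 1 and all WT_untreated mice shared slide 1. Slide and treatment are therefore partly confounded, and with WT marrow they cannot be compared within any slide. WT_AOMDSS 3 was the dimmest array, with a 75th percentile of 153 signal units against 332 to 768 on the others. Spots marked as non-uniform numbered 491 to 767 on the arrays of slide 3, against 4 to 51 on the others. Such spots were set to missing, so these missing values fell mostly on treated mice of that slide. Muc1 itself was at -2.41 to -0.99 in KO_AOMDSS and -3.53 to -1.47 in WT_AOMDSS mice, and at -3.80 to -2.12 in KO_untreated and -2.25 to -1.50 in WT_untreated mice. Since the host's own epithelium carries Muc1, this overlap does not check the donor labels.

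A promoter window of 300 bases (250 before and 50 after the annotated start, from RefSeq, build GRCm38.p6) was given for 65 of the 78 measured members. Known regulators of these genes include nuclear respiratory factor 1 (NRF1), ETS factors such as the GA-binding protein, estrogen-related receptors (ERR) and YY1. Their motifs were searched on both strands as the palindromic NRF1 consensus, CCGGAAG for ETS, CAAGGTCA for ERR and AAGATGGCG for YY1. The NRF1 letters stood in 4 of 65 member promoters, against 0.977% of the promoters of 27025 genes, and the ETS letters in 15 against 9.12% of all promoters. The ERR letters stood in 4 member promoters against 1.53% of all, and the YY1 letters in 6 against 1.49% of all. In total 25 of 65 member promoters, or 38.5%, held at least 1 of the 4 motifs, against 12.5% of all promoters. All promoters here means those of every gene with a window, measured in the mucosa or not. The median GC content was 57.3% in member windows and 52.7% in all promoters, and its part in these shares was not tested. The windows of 6 genes are printed here because the results return to these genes, with matches to any motif in capitals. Ndufs6 (chr13:73328433-73328732, minus strand) holds the YY1 letters, Sdhd (chr9:50603800-50604099, minus strand) those of ETS and ERR, Uqcrh (chr4:116075021-116075320, minus strand) those of ETS, and Cox6a1 (chr5:115348909-115349208, minus strand) those of NRF1 and ETS. Cox7a1 (chr7:30183921-30184220, plus strand) and Cox7a2 (chr9:79759804-79760103, minus strand), the alternative isoforms of 1 complex IV subunit, hold none of the 4.
Ndufs6: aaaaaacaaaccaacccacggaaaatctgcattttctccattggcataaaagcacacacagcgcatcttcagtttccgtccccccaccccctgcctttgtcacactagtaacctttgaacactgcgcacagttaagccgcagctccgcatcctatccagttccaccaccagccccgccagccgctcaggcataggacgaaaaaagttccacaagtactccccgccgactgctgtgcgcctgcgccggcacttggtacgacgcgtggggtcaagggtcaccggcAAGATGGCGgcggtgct
Sdhd: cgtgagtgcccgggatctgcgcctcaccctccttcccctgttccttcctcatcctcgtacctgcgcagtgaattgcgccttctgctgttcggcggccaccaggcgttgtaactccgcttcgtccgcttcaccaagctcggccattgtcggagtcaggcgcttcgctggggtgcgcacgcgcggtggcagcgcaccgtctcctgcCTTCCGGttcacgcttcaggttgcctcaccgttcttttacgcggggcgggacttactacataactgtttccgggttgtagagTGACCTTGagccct
Uqcrh: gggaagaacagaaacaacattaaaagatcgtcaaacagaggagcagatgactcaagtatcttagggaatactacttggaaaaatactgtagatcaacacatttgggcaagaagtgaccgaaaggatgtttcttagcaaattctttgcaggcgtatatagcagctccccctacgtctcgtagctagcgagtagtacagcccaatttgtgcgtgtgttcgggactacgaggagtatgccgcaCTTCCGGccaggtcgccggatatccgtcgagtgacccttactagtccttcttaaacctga
Cox6a1: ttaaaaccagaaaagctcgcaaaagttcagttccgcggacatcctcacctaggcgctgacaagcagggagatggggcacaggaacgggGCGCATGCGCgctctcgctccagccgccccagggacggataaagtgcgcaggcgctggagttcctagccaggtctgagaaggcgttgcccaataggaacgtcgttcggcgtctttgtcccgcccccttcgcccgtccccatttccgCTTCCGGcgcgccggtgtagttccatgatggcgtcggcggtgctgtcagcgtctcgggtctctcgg
Cox7a1: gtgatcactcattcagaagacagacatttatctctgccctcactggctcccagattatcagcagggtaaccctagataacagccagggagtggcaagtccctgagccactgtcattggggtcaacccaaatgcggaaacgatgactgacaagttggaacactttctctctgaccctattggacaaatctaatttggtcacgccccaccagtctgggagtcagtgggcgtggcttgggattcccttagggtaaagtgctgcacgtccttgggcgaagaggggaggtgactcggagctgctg
Cox7a2: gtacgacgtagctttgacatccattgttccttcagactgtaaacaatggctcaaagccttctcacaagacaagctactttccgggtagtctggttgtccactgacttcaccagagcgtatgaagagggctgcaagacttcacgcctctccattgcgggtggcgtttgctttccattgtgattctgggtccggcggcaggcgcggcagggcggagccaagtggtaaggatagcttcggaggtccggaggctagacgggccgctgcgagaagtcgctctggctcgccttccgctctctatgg

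With AOM and DSS, respiratory chain transcripts were lower on balance, and none was called higher. Averaged over both marrows, 22 of 78 members fell and 0 rose at an adjusted p below 0.05 (limma across all genes), that is 28.2% lower against 13.4% of all genes tested, while 7.52% of all genes rose and 20.9% were called in either direction. With WT marrow 8 members fell and 0 rose, or 10.3% against 10.1% of all genes, of which 3.57% rose and 13.7% were called in either direction. With KO marrow 2 fell and 0 rose, or 2.56% against 1.3% of all genes, of which 1.85% rose and 3.15% were called in either direction. The share lower with WT marrow was thus near that of all genes, and with KO marrow it rests on 2 genes. The median member changed by -0.43 averaged over both marrows (all genes -0.19), by -0.37 with KO marrow (all genes -0.11) and by -0.45 with WT marrow (all genes -0.24). Below the all-gene median lay 60 of 78 members averaged over both marrows, 64 with KO marrow and 52 with WT marrow. Among the 686 genes whose mean level lay between the members' lower and upper quartiles, the median change averaged over both marrows was -0.13 and 15.2% fell. Of these genes 4.23% fell with KO marrow, a larger share than the members' 2.56%, and 6.85% fell with WT marrow, against the members' 10.3%. In a bulk sample, fewer cells rich in mitochondria and less of these transcripts per cell cannot be told apart. Single arrays moved the count averaged over both marrows: it was 41 without WT_AOMDSS 3 (27.4% of all genes lower), 11 without WT_AOMDSS 1 (6.73%) or WT_untreated 1 (6.59%), and 12 without KO_AOMDSS 1 (6.58%), KO_untreated 1 (7.98%) or WT_untreated 2 (6.68%).

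The slides bear directly on these counts. Only slide 2 held both treated and untreated mice. A fit with slide as a fixed block thus takes that difference from its 4 arrays, the dim WT_AOMDSS 3 among them. The other slides add only differences between donors. With slide as a fixed block, 0 of the 22 members called over both marrows stayed past the threshold, although 20 of them kept a negative change, and the only 2 members called were Atp5pb (-1.30 ± 0.27 SE, adjusted p = 0.0214) and Ndufv2 (-1.16 ± 0.31 SE, adjusted p = 0.0488). In that fit 2.1% of all genes fell, so that 2 of 78 was near the background. The same fit called 4 members lower with KO marrow (2.63% of all genes) and 0 with WT marrow (0.072% of all genes). Slide 2 alone sets 1 treated mouse, KO_AOMDSS 3, against KO_untreated 2 and 3, and its differences are given here as values with no test. The median member differed there by -0.35 and the median of all genes by 0.29, and with slide as a block the median changes were -0.18 for the members and 0.46 for all genes. When arrays were centred on their medians instead of their 75th percentiles, the all-gene median itself moved to 0.23 and the members' to -0.01. Under that centring 4 of 78 members fell, a smaller share than the 9.6% of all genes that did. Among the 686 genes of similar level 3.21% fell there, with a median change of 0.28. The excess of falling members over all genes therefore depended on the scaling as well. Thus the direction of the typical member depended on the scaling while its place below the typical gene did not.

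**Figure D1:**
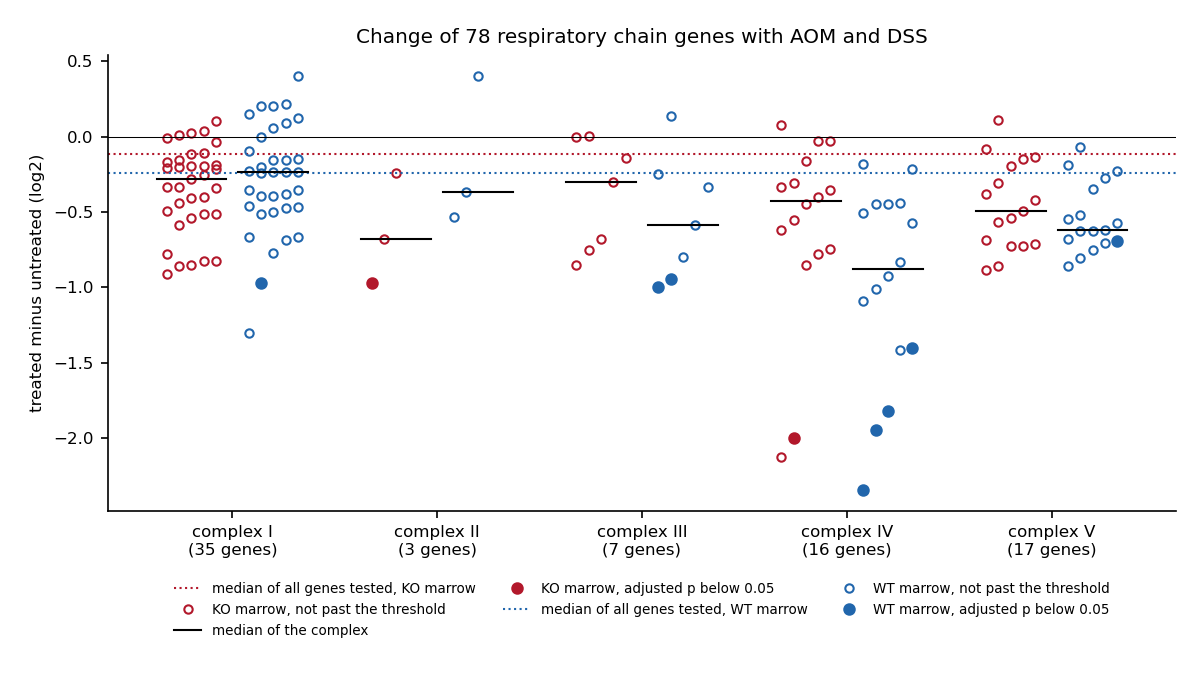
Treated minus untreated change (log2) of each measured respiratory chain gene by complex, with KO marrow at the left and WT marrow at the right of each pair, with filled points for an adjusted p below 0.05, black bars for medians and dotted lines for the median of all genes tested. The lowest point with either marrow is Cox6a2 of complex IV, followed by Cox7a1 with KO marrow and by Cox8b and Cox7a1 with WT marrow, and complex I straddles the all-gene median with WT marrow.

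By complex, the median change averaged over both marrows was -0.33 for complex I, -0.60 for complex II, -0.54 for complex III, -0.61 for complex IV and -0.54 for complex V. The members that fell numbered 7 of 35, 1 of 3, 3 of 7, 5 of 16 and 6 of 17 in that order. With WT marrow complex I shifted least: its median of -0.24 was that of all genes to 2 decimals, while complex IV had a median of -0.88. These are descriptions, since no test of a difference between complexes was made.

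Complex I, the NADH dehydrogenase, had the most members and the mildest shift. Ndufs6, a zinc-binding accessory subunit needed to complete the NADH-oxidising module, measured 4.00, 4.61 and 4.42 in KO_AOMDSS and 4.45 and 4.43 in WT_AOMDSS mice 1 and 3, against 5.34, 5.04 and 5.23 in KO_untreated and 5.43, 5.41 and 5.40 in WT_untreated mice. Every treated mouse measured was below every untreated one, and the value of WT_AOMDSS 2 was missing because the scanner had marked the spot as an outlier. Ndufs6 fell by 0.91 ± 0.16 (SE) on the log2 scale averaged over both marrows, or 1.88-fold (adjusted p = 0.00332), and by 0.97 ± 0.24 with WT marrow (adjusted p = 0.0268). With slide as a block its change was -0.75 and no longer past the threshold (adjusted p = 0.140). Ndufb4, an accessory subunit of the membrane arm, measured 4.74, 4.80 and 3.97 in KO_AOMDSS and 4.54, 4.57 and 4.49 in WT_AOMDSS mice, against 5.52, 5.26 and 5.29 in KO_untreated and 5.18, 5.23 and 5.24 in WT_untreated mice. The treated and untreated mice did not overlap, and the change averaged over both marrows was -0.77 ± 0.16 (SE, adjusted p = 0.00822). With KO marrow its change of -0.85 ± 0.23 missed the threshold (adjusted p = 0.0719), and with slide as a block it was -1.06 ± 0.26 (SE, adjusted p = 0.0346).

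Ndufa1, a small membrane-arm subunit needed for assembly and encoded on chromosome X, fell by 1.10 ± 0.29 (SE) averaged over both marrows (adjusted p = 0.0208), with 1 value missing in WT_AOMDSS mice. With slide as a block its change was -0.18 (adjusted p = 0.780). Ndufa7 (-0.72, with KO_AOMDSS 1 missing), Ndufb5 (-0.61, with KO_AOMDSS 2 missing), Ndufa6 (-0.60) and Ndufb8 (-0.49) completed the complex I members that fell, all of them accessory subunits. Core subunits that carry the electrons were not among them. In the fit with slide as a block, however, the core subunit Ndufv2 was called (-1.16 ± 0.31 SE averaged over both marrows, adjusted p = 0.0488). Ndufv1, which binds NADH and flavin, changed by -0.41 ± 0.15 (SE, adjusted p = 0.0703), and Ndufs1, which holds iron-sulfur clusters, by -0.00 ± 0.19 with KO_AOMDSS 1 missing. Ndufa9, an accessory subunit beside the quinone site, changed by 0.08 ± 0.18. Ndufa4, named for complex I and since assigned to complex IV, changed by -0.06 ± 0.21. Across the 35 complex I genes the changes averaged over both marrows ran from -1.10 to 0.16.

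Complex II, succinate dehydrogenase, is also an enzyme of the tricarboxylic acid cycle. Sdhc, one of its haem-holding membrane anchors, measured 3.02, 3.51 and 3.24 in KO_AOMDSS and 3.24, 3.80 and 3.41 in WT_AOMDSS mice, against 4.10, 4.40 and 4.18 in KO_untreated and 3.70, 3.70 and 4.15 in WT_untreated mice. The KO-marrow groups did not overlap, and the WT-marrow groups did, since WT_AOMDSS 2 was above 2 of the WT_untreated mice. Sdhc fell by 0.97 ± 0.23 (SE) with KO marrow, or 1.96-fold (adjusted p = 0.0399), and changed by -0.37 ± 0.23 with WT marrow (adjusted p = 0.287). The difference between the marrows in its treatment effect was -0.60 and not past the threshold (adjusted p = 0.902), so the effects are not shown to differ. With slide as a block its change with KO marrow was -1.08 ± 0.30 (SE, adjusted p = 0.0529). Sdhd, the other anchor, changed by -0.60 ± 0.23 averaged over both marrows (adjusted p = 0.0744), and Sdha, the flavin-holding catalytic subunit, by 0.08 ± 0.23 on a probe whose sign the gene's other probe did not share. Sdhb, the iron-sulfur subunit, was left out of the fit for missing values: it measured 4.50 and 4.11 in KO_AOMDSS 1 and 3 and 3.05 in WT_AOMDSS 3, against 4.59, 5.04 and 4.57 in KO_untreated and 4.56, 4.32 and 4.73 in WT_untreated mice. Its 3 treated values lay within or below the untreated range and have no test.

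Complex III passes electrons from ubiquinol to cytochrome c. Uqcrfs1, the Rieske iron-sulfur protein that takes the first electron, measured 5.97, 5.54 and 5.85 in KO_AOMDSS and 5.62, 5.57 and 6.20 in WT_AOMDSS mice, against 6.92, 6.21 and 6.27 in KO_untreated and 7.00, 6.87 and 6.51 in WT_untreated mice. Treated and untreated mice did not overlap, though WT_AOMDSS 3 at 6.20 and KO_untreated 2 at 6.21, both on slide 2, nearly met. Uqcrfs1 fell by 0.84 ± 0.19 (SE) averaged over both marrows (adjusted p = 0.0107) and by 0.99 ± 0.27 with WT marrow (adjusted p = 0.0327), and with slide as a block the averaged change was -0.15 (adjusted p = 0.768). Uqcr10 fell by 0.83 ± 0.23 (adjusted p = 0.0243) and Uqcrh, the acidic hinge protein that helps cytochrome c bind, by 0.67 ± 0.19 (adjusted p = 0.0274). On slide 2 the 1 treated KO-marrow mouse differed from the 2 untreated ones by -1.01 for Uqcr10 and -0.99 for Uqcrh. Uqcrq, a small subunit of the cytochrome b core, fell with WT marrow by 0.94 ± 0.28 (adjusted p = 0.0425) and changed by -0.14 ± 0.28 with KO marrow (adjusted p = 0.867). The large core proteins were not called, with changes of -0.27 ± 0.14 for Uqcrc2 and 0.07 ± 0.16 for Uqcrc1, whose probes differed in sign. Uqcrb, also left out of the fit, measured 4.42, 4.62 and 5.35 in KO_AOMDSS and 5.60 in WT_AOMDSS 3, against 5.50, 5.35 and 5.19 in KO_untreated and 5.87, 5.46 and 5.20 in WT_untreated mice.

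Complex IV, cytochrome c oxidase, held the most pronounced changes. Cox7a1, the isoform of subunit VIIa that is typical of heart and skeletal muscle, measured 4.02, 4.34 and 3.39 in KO_AOMDSS and 3.71, 3.89 and 4.87 in WT_AOMDSS mice, against 6.29, 5.72 and 5.72 in KO_untreated and 6.32, 5.86 and 5.74 in WT_untreated mice. The highest treated mouse, WT_AOMDSS 3, stayed well below the lowest untreated one. Cox7a1 fell 3.98-fold with KO marrow (-1.99 ± 0.34 SE, adjusted p = 0.00636), 3.52-fold with WT marrow (-1.82 ± 0.34 SE, adjusted p = 0.00980) and 3.75-fold averaged over both (-1.91 ± 0.24 SE, adjusted p = 0.000300). With slide as a block it fell by 1.71 ± 0.44 with KO marrow (adjusted p = 0.0398), and its change averaged over both marrows was -1.44 (adjusted p = 0.0840). On slide 2 the 1 treated KO-marrow mouse differed from the 2 untreated ones by -2.33. In the authors' deposited table, which holds 2506 probes and only 2 members of the respiratory chain, the group means of Cox7a1 differed by -1.98 with KO marrow and by -1.79 with WT marrow.

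Cox6a2, the muscle isoform of subunit VIa and the other member in the authors' deposited table (-2.11 with KO marrow and -2.32 with WT marrow), was dim. It measured -4.17, -4.13 and -3.30 in KO_AOMDSS and -4.70, -4.16 and -2.53 in WT_AOMDSS mice, against -1.11, -2.29 and -1.82 in KO_untreated and -1.04, -2.16 and -1.16 in WT_untreated mice. All its spots were well above background, and the treated and untreated mice did not overlap. Cox6a2 fell by 2.34 ± 0.58 (SE) with WT marrow (adjusted p = 0.0262) and by 2.23 ± 0.41 averaged over both marrows (adjusted p = 0.00372), but a different background correction left -0.49 (adjusted p = 0.288) and slide as a block -0.68 (adjusted p = 0.434). Cox8b, the muscle isoform of subunit VIII and as dim, fell by 1.94 ± 0.48 with WT marrow (adjusted p = 0.0252), and that background correction turned its sign. Cox6c, a small subunit of the outer surface of the complex, measured 7.19, 6.71 and 7.31 in KO_AOMDSS and 6.84, 7.10 and 7.26 in WT_AOMDSS mice, against 8.36, 7.58 and 7.61 in KO_untreated and 8.89, 8.58 and 7.94 in WT_untreated mice. The groups did not overlap, and Cox6c fell by 1.40 ± 0.31 (SE) with WT marrow (adjusted p = 0.0174) and by 1.09 ± 0.22 averaged over both (adjusted p = 0.00552), against -0.37 with slide as a block (adjusted p = 0.521). Cox7c fell by 0.84 ± 0.27 averaged over both marrows (adjusted p = 0.0428), and its change was 0.25 with slide as a block.

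The ubiquitous core of complex IV moved less. The changes averaged over both marrows, none past the threshold, were -0.41 ± 0.18 for Cox4i1, which sets the response to the ATP level, -0.18 ± 0.17 for Cox5a, -0.51 ± 0.24 for Cox5b and -0.39 ± 0.30 for Cox7a2, with 1 value of Cox7a2 missing. Cox7a2l, a factor of supercomplex assembly, changed by -0.37 ± 0.15 (adjusted p = 0.0959). Cox4i2, an isoform known from lung and from low oxygen, changed by -0.79 ± 0.53 and Cox6b2, known from testis, by -0.93 ± 0.40. Cox7b2 and Cox8c, both testis isoforms, were well above background on 3 and on 1 of the 12 arrays and were not tested.

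**Figure D2:**
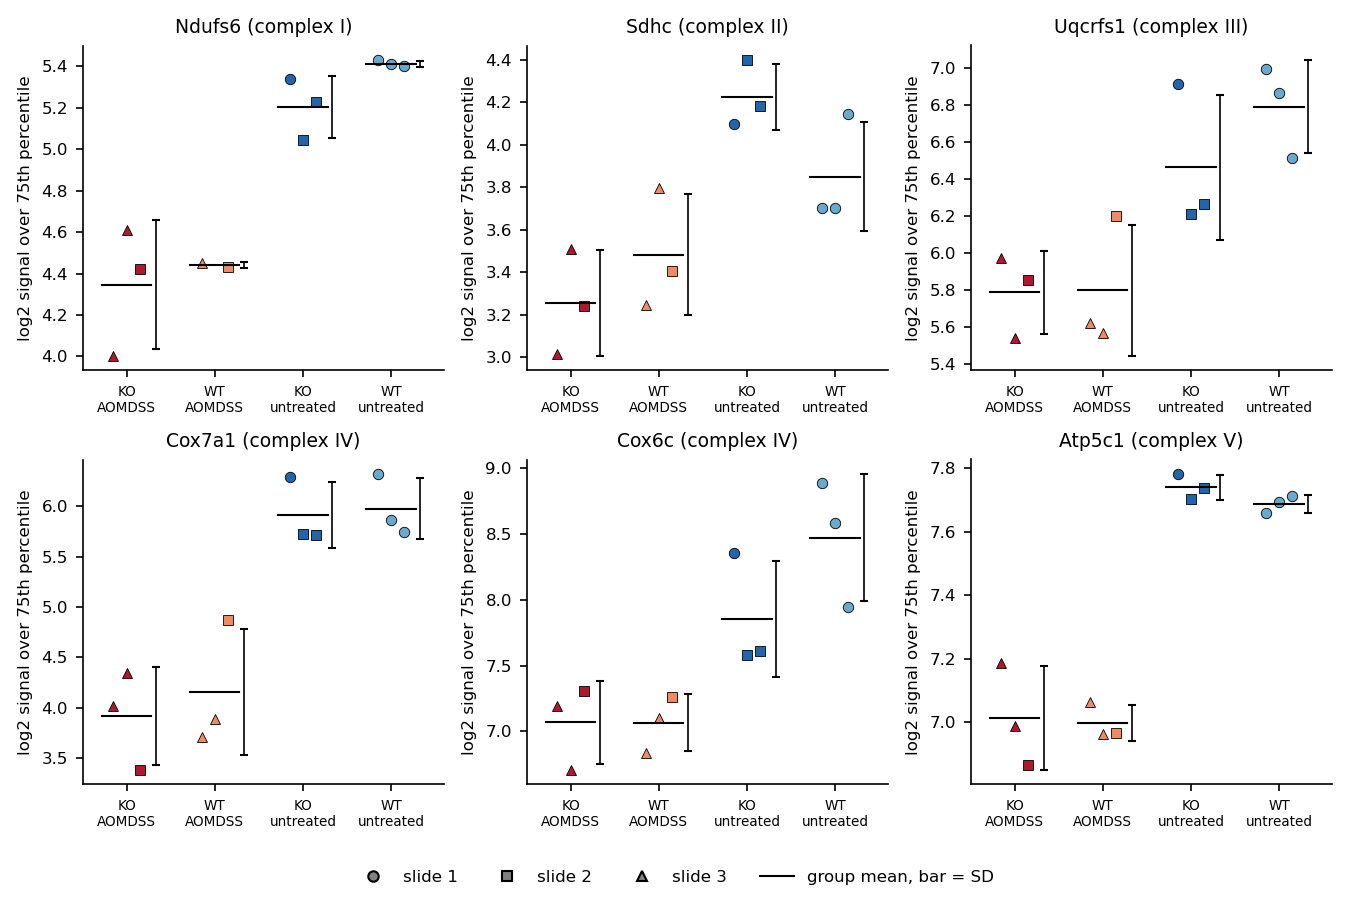
Level (log2 signal over the 75th percentile of the array) of 6 respiratory chain genes in each mouse, by group, with symbols for the slide, a line for the group mean and a bar for its SD. The 6 treated mice lie below the 6 untreated ones for Cox7a1, Cox6c, Uqcrfs1 and Atp5c1, as do the 5 treated mice with a value for Ndufs6, while Sdhc overlaps between the WT-marrow groups.

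Because the isoform pairs share a place in the complex, the log2 ratio of each alternative isoform to its ubiquitous partner was taken within each array, where scaling cancels. These 5 ratios were chosen after the values had been seen. For Cox7a1 over Cox7a2 the 5 treated mice with both values lay 0.95 to 1.85 below the mean of the untreated mice, while the 6 untreated mice lay within 0.58 of it. The mean difference was -1.42 (SD 0.40 in treated and 0.44 in untreated mice), with a two-sided p of 0.00216 in the exact permutation test over mice, the smallest it can give, and 0.0108 after adjustment over the 5 pairs. Within slide 2 the same difference was -2.21, from 2 treated and 2 untreated mice. The ratio of Cox6a2 to Cox6a1 was lower by 1.80 (exact permutation p = 0.00649, adjusted 0.0162), and by 0.73 within slide 2. That second pair rests on the dim Cox6a2 probe, and under the other background correction its difference was 0.39. Cox8b over Cox8a (-0.91, adjusted p = 0.0830 in the exact permutation test), Cox4i2 over Cox4i1 (-0.37, adjusted p = 0.587) and Cox6b2 over Cox6b1 (-0.23, adjusted p = 0.851) did not pass the threshold after adjustment. The permutation ignores the slides.

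**Figure D3:**
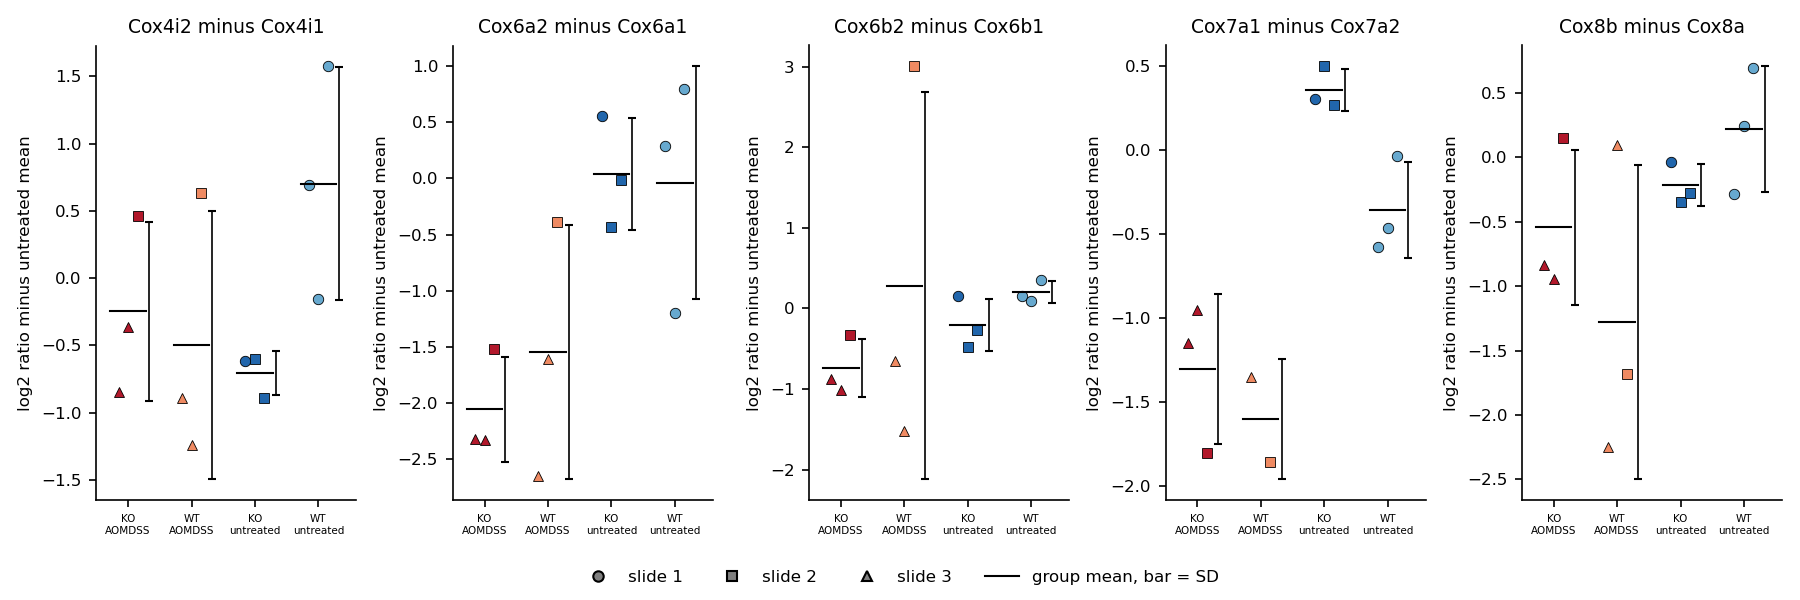
Log2 ratio of each alternative complex IV isoform to its ubiquitous partner within the array, minus its mean over the untreated mice, for each mouse, with symbols for the slide, a line for the group mean and a bar for its SD. For Cox7a1 over Cox7a2 no treated mouse reaches an untreated one, and for Cox6b2 over Cox6b1 the WT_AOMDSS mice spread from below to far above the untreated mice.

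Of complex V, the ATP synthase, 6 of 17 genes fell, and these encode subunits of its catalytic head and stalks. Atp5c1, the gamma subunit of the turning central stalk, measured 7.19, 6.99 and 6.87 in KO_AOMDSS and 7.06, 6.96 and 6.97 in WT_AOMDSS mice, against 7.78, 7.70 and 7.74 in KO_untreated and 7.66, 7.69 and 7.71 in WT_untreated mice. The 6 treated mice were all lower than the 6 untreated ones, which lay close together. Atp5c1 fell by 0.69 ± 0.19 (SE) with WT marrow (adjusted p = 0.0365) and by 0.71 ± 0.14 averaged over both, or 1.63-fold (adjusted p = 0.00479). With KO marrow the change of -0.72 ± 0.19 had an adjusted p of 0.0648. Under the slide block its averaged change was -0.76 (adjusted p = 0.0998). Atp5o, which ties the head to the peripheral stalk, fell by 0.68 ± 0.16 (adjusted p = 0.0111), Atp5h, a subunit of that stalk, by 0.80 ± 0.24 (adjusted p = 0.0342; 0.13 with slide as a block) and Atp5d, of the central stalk, by 0.54 ± 0.17 (adjusted p = 0.0398). The head subunits Atp5a1 and Atp5b, the second of which is catalytic, fell by 0.54 ± 0.17 (adjusted p = 0.0430) and 0.50 ± 0.15 (adjusted p = 0.0360). A dimmer probe of Atp5a1 changed by -0.24 ± 0.18 and dimmer probes of Atp5b by -0.66 ± 0.37 and -0.82 ± 0.36, none of them past the threshold.

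The genes of the membrane-bound ring of complex V were not called. Atp5g1, Atp5g2 and Atp5g3, which encode the same mature ring protein, changed by 0.02 ± 0.16, -0.24 ± 0.27 and -0.42 ± 0.21 averaged over both marrows, and the 2 probes of Atp5g2 differed in sign. Atp5pb, of the peripheral stalk, measured 5.84, 5.92 and 5.10 in KO_AOMDSS and 6.29, 6.24 and 5.15 in WT_AOMDSS mice, against 6.14, 6.58 and 6.33 in KO_untreated and 5.94, 6.06 and 6.26 in WT_untreated mice. Its 2 low treated values were those of slide 2, and its change without slide in the fit, -0.46 ± 0.23, missed the threshold (adjusted p = 0.156). Ndufv2, the complex I member called beside it in the fit with slide, was likewise lowest in KO_AOMDSS 3 at 2.82 and WT_AOMDSS 3 at 2.69.

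The donor of the marrow did not separate the members. Between KO_AOMDSS and WT_AOMDSS mice 0 of 78 members were called, 1 had an unadjusted p below 0.05, and 0% of all genes were called (limma). Between KO_untreated and WT_untreated mice the counts were 0 called and 0 with an unadjusted p below 0.05, with 0% of all genes called. Without KO_untreated 1 that comparison called 1 member and 1682 genes in all, 1666 of them lower in KO_untreated mice. For the difference between the treatment effects with KO and with WT marrow they were 0 and 1, again with 0% of all genes called. The median member differed by -0.13 between KO_AOMDSS and WT_AOMDSS mice (all genes -0.02) and by -0.18 between KO_untreated and WT_untreated mice (all genes -0.18). The 686 genes of similar level had medians of -0.00028 in treated and 0.03 in untreated mice. The median member lay below both, and that gap was not tested. The highest statistics in treated mice, none past the threshold, were those of Cox6b1, Cox8b and Atp5j (0.81, 0.87 and 0.49), and the lowest those of Ndufb8, Ndufb5 and Cox7c (-0.43, -0.42 and -0.61). In untreated mice they included those of Sdha and Sdhc (0.60 and 0.38) and those of Cox7c, Cox6c and Cox7a2 (-0.79, -0.62 and -0.78). For the difference in treatment effect they included those of Cox8b, Cox6a1 and Uqcrq (1.59, 0.80 and 0.80) and those of Ndufb8 and Sdhc (-0.66 and -0.60).

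Within slides the comparison of donors in treated mice varied. On slide 3, with 2 mice per donor, 0 members were called and the median difference was 0.12. On slide 2, KO_AOMDSS 3 and WT_AOMDSS 3 differed by a median of -0.45 over the members and -0.29 over all genes, which has no test with 1 mouse per donor, and the second of these mice gave the dim array. On slide 1, KO_untreated 1 and the 3 WT_untreated mice differed in 0 members.

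Genes that work beside the chain but lie outside the naming rule were counted in lists, to be read against the 13.4% of all genes that fell and the 7.52% that rose. Of 8 further subunits and electron carriers 4 fell averaged over both marrows, among them Cyc1, the cytochrome c1 of complex III, by 0.63 ± 0.15 (adjusted p = 0.0155), while Cycs, cytochrome c itself, changed by -0.01 ± 0.17. Of 41 assembly factors 3 fell and 0 rose, with a list median of 0.02 against -0.19 for all genes: Sdhaf4, which helps mature the flavin subunit of complex II, fell by 1.03 ± 0.16 (adjusted p = 0.00167), Cmc1 by 1.04 ± 0.34 (adjusted p = 0.0440) and Ndufaf5 by 0.69 ± 0.18 (adjusted p = 0.0211). In the slide-blocked fit 0 genes of either list were called (Cyc1 -0.44, Sdhaf4 -0.79, Cmc1 -1.47 and Ndufaf5 -0.60). Of 16 tricarboxylic acid cycle genes 4 fell, including Sucla2 (-1.01 ± 0.16, adjusted p = 0.00165) and Cs, citrate synthase (-0.89 ± 0.19, adjusted p = 0.00804), with a list median of -0.47. Under the slide block 2 of the 16 were called, and neither Sucla2 (-0.64, adjusted p = 0.187) nor Cs (-0.50, adjusted p = 0.375) was among them. Of the genes encoded in mitochondrial DNA 0 were measured.

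Among 23 regulators of mitochondrial biogenesis 5 fell and 0 rose, and with slide as a block 0 were called. Ppargc1a, the coactivator PGC-1alpha, measured 0.11, 1.26 and 1.71 in KO_AOMDSS and -0.76, 0.43 and 2.81 in WT_AOMDSS mice, against 3.11, 3.12 and 3.18 in KO_untreated and 3.44, 2.54 and 2.97 in WT_untreated mice. Its treated mice spread widely, and only WT_AOMDSS 3 reached the untreated range. Ppargc1a fell by 2.13 ± 0.48 averaged over both marrows (adjusted p = 0.0108), and its change with slide as a block was -0.82 (adjusted p = 0.409). Ppara, a nuclear receptor of fatty acid oxidation, fell by 1.55 ± 0.24 (adjusted p = 0.00131), with every treated mouse below every untreated one, while its change in the fit with slide blocked was -1.48 (adjusted p = 0.0561). Ppargc1b fell by 1.09 ± 0.25 (adjusted p = 0.0118), Polg2, an accessory subunit of the mitochondrial DNA polymerase, by 0.94 ± 0.22 (adjusted p = 0.0114) and Sirt3, a mitochondrial deacylase, by 0.64 ± 0.15 (adjusted p = 0.0113). In the slide-blocked fit the changes were -1.29 for Ppargc1b (adjusted p = 0.0871), -1.10 for Polg2 (adjusted p = 0.0743) and -0.39 for Sirt3 (adjusted p = 0.367). The transcription factors whose motifs were searched did not pass the threshold, with -0.08 ± 0.31 for Nrf1, -0.09 ± 0.20 for Gabpa, 0.04 ± 0.17 for Esrra and 0.00 ± 0.17 for Yy1, nor did Tfam, the mitochondrial DNA packaging factor, at 0.02 ± 0.17. The motifs stood in the promoters of 3 of the 18 called members with a window and of 22 of the 47 members not called.

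**Figure D4:**
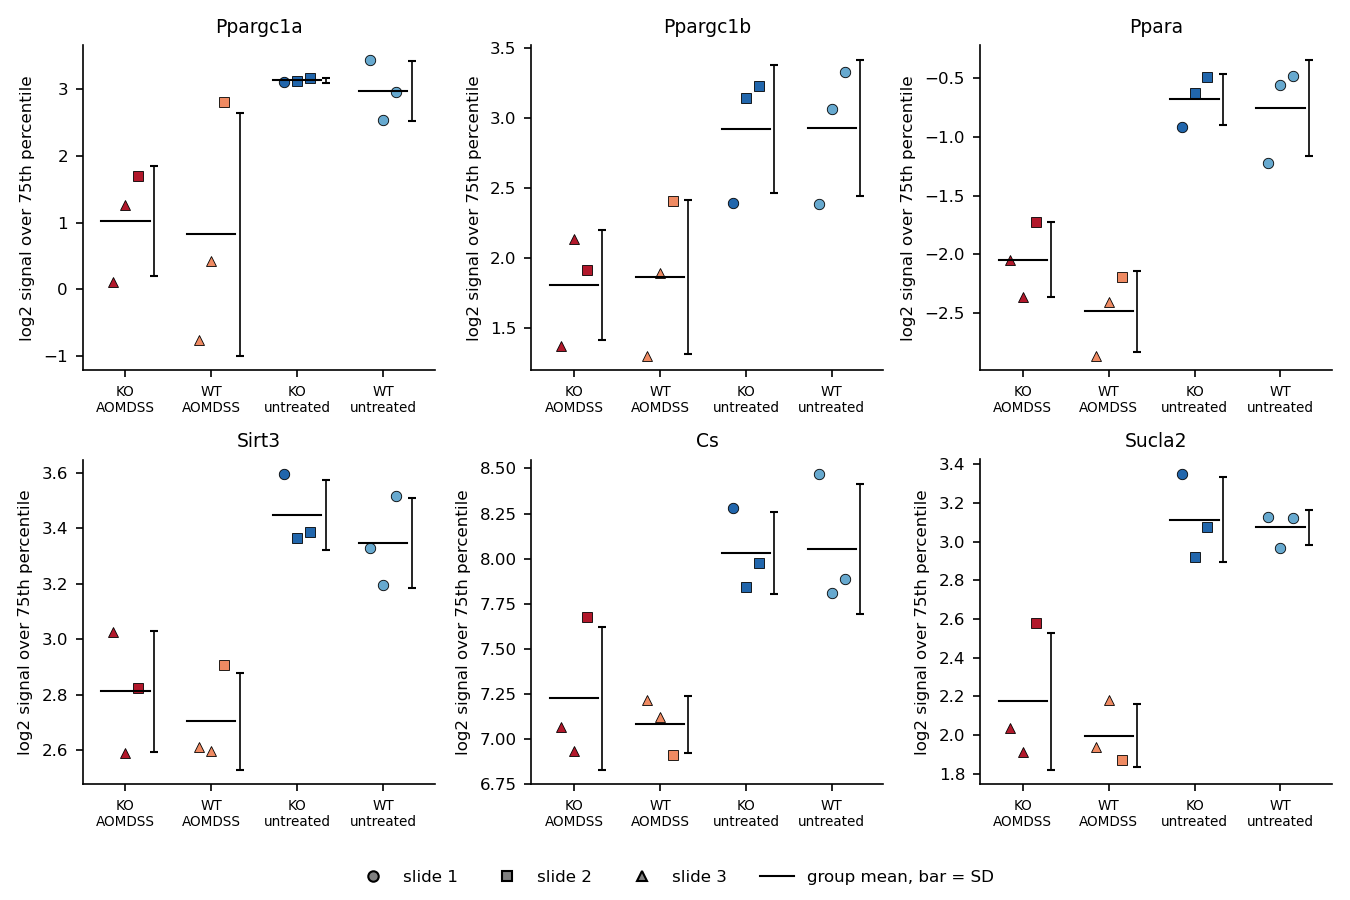
Level (log2 signal over the 75th percentile of the array) of the regulators Ppargc1a, Ppargc1b, Ppara and Sirt3 and of the tricarboxylic acid cycle genes Cs and Sucla2 in each mouse, with symbols for the slide, a line for the group mean and a bar for its SD. All treated mice lie below all untreated mice for Ppara, Cs, Sirt3 and Sucla2, while 1 WT_AOMDSS mouse overlaps for Ppargc1a.

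Glycolytic and hypoxia genes divided. Of 20, 3 rose and 4 fell averaged over both marrows. Pfkfb3, which makes an activator of glycolysis, rose by 3.67 ± 0.34 (adjusted p = 4.34e-05) and Hk2, hexokinase 2, by 1.38 ± 0.26 (adjusted p = 0.00450), while Pfkl fell by 0.87 ± 0.15 (adjusted p = 0.00256) and Ldha, lactate dehydrogenase A, by 0.77 ± 0.21 (adjusted p = 0.0251). Under the slide block 2 of the 20 rose, Pfkfb3 and Hk2, and 3 fell, Pfkl among them, while Ldha was at -0.03 (adjusted p = 0.960).

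Cell markers moved in the same mice. Of 16 markers of absorptive colonocytes 10 fell averaged over both marrows, with a list median of -1.63, and their summed level, in multiples of the 75th percentile, was 661 to 1128 in KO_AOMDSS and 647 to 1137 in WT_AOMDSS mice, against 1427 to 1919 in KO_untreated and 1334 to 2310 in WT_untreated mice. Slc26a3, the chloride exchanger of surface colonocytes, fell by 2.71 ± 0.26 (adjusted p = 5.17e-05) and Aqp8, a water channel of the same cells, by 1.61 ± 0.25 (adjusted p = 0.00123). Of 13 general epithelial markers 1 fell, with a list median of -0.07. All 9 neutrophil markers, 10 of 11 monocyte and macrophage markers and 8 of 12 fibroblast markers rose. In the slide-blocked fit 6 absorptive markers fell, with Slc26a3 at -2.21 (adjusted p = 0.00897) and Aqp8 at -0.97 (adjusted p = 0.183), and 8 neutrophil, 6 monocyte and macrophage and 2 fibroblast markers rose. The summed neutrophil level was 11.8 to 54.7 in KO_AOMDSS and 49.9 to 126 in WT_AOMDSS mice, against 0.214 to 0.302 in KO_untreated and 0.219 to 0.507 in WT_untreated mice, where up to 7 of the 9 markers were not well above background. With regard to the muscle isoforms Cox7a1, Cox6a2 and Cox8b, 2 of 14 striated muscle markers rose and 1 fell, and 0 of 10 smooth muscle markers were called. The summed striated muscle level was 3.73 to 5.38 in KO_AOMDSS and 4.06 to 8.17 in WT_AOMDSS mice, against 2.93 to 3.95 in KO_untreated and 3.49 to 8.41 in WT_untreated mice. Of 9 testis markers 3 fell, and 0 of 7 adipocyte markers were called, although their summed level reached 114 in 1 WT_untreated mouse. Of 11 small intestine markers 5 fell, and their summed level was 11.8 to 37.9 in KO_AOMDSS and 7.29 to 58.8 in WT_AOMDSS mice, against 46.5 to 63.9 in KO_untreated and 44.2 to 187 in WT_untreated mice, where WT_untreated 1 and 2 stood apart at 187 and 185. Of 6 red blood cell markers 4 fell, with summed levels of 8.14 to 22.6 in KO_AOMDSS and 2.60 to 21.2 in WT_AOMDSS mice, against 13.8 to 101 in KO_untreated and 12.5 to 81.0 in WT_untreated mice. Under the slide block 2 small intestine and 0 red blood cell markers were called. The part of these cell markers in the changes of the respiratory chain was not tested.

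**Figure D5:**
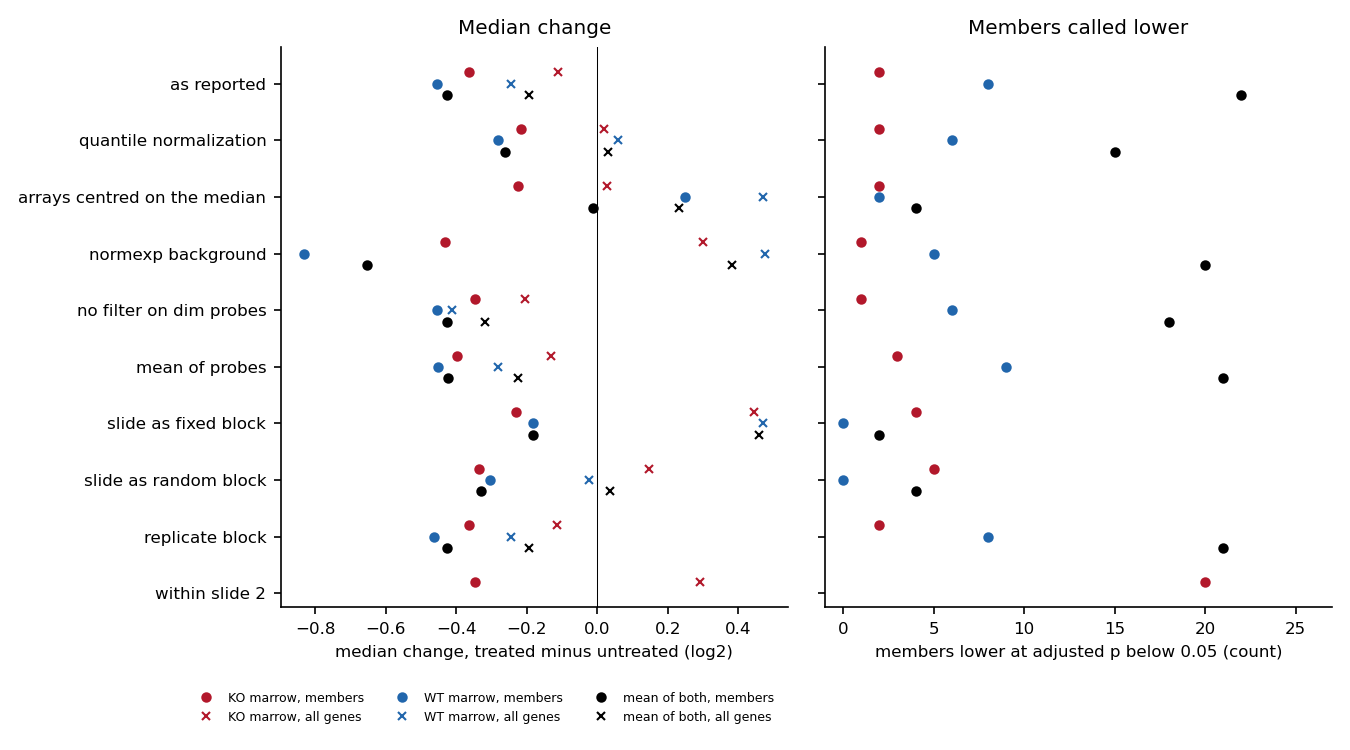
Median treated minus untreated change (log2) of the respiratory chain genes (circles) and of all genes tested (crosses) at the left, and the count of respiratory chain genes called lower at the right, under each way of processing, for KO marrow, WT marrow and the mean of both. The circles lie to the left of the crosses throughout, and the counts lie between 0 and 5 for the fits with slide as a block.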

How the data were processed

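Total RNA of scraped colon mucosa was labelled with Cy3 and hybridised to single-colour Agilent arrays (design 014868). The authors deposited the scanner output (per the file headers, made by Feature Extraction 10.7.3.1) as linear spot intensities, background-corrected by that software and not scaled between arrays. The log2 values that the authors deposited in a table of 2506 probes are group means, and set against the arrays they proved centred on each probe's median.

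Control spots were removed and outlier spots set to missing, and the log2 intensity minus the array's 75th percentile was used (R 4.3.3, limma 3.58.1). Genes were named through RefSeq accessions (24375 of 41174 probes had a symbol). A probe was kept if well above background on all 3 arrays of a group with at least 2 values in each group, and the brightest kept probe stood for its gene. Of the 78 measured members 15 had several kept probes and 12 a missing value.

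A limma fit with 1 mean per group and an intensity trend gave p-values, adjusted by Benjamini-Hochberg within each of 6 comparisons at a threshold of 0.05. "Averaged over both marrows" is the mean of the 2 treatment effects. Each array is 1 mouse, and the number of arrays limits the precision. Named genes were listed core subunits and tissue isoforms, per complex up to 4 called members with the largest rise or fall, where none was called the 3 highest and 3 lowest statistics, and up to 4 called genes of each other list. The remaining called members and a few neighbours (Ndufv2, Atp5g2, Atp5g3, Atp5pb, Cycs and the regulators with motifs) were named after their values were seen. 1 gene that this rule names is not reported here. The members and lists were chosen with earlier results of these data known. Alternatives were quantile normalization, centring on medians, normexp correction (offset 50, on median in place of mean signals), no filter on dim probes, the mean of probes, slide as a fixed or random block, fits within slides, a replicate block and leaving out each array. The fit was tested on simulated data with independent noise, no slide effect and no missing values. That test therefore does not bear on the confounding of slide and treatment. Promoter windows came from RefSeq (first listed start of each gene), and per-sample columns left unused numbered 0.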

Additional observations from a re-analysis of the deposited data

How the results depend on the processing

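The median member lay below the median of all genes in each treated against untreated comparison under all alternatives run. The number of members called was less stable. Averaged over both marrows (22 called) it was 4 with arrays centred on medians (9.6% of all genes lower), 2 with slide as a fixed block (2.1%) and 4 as a random block (1.85%). With KO marrow (2 called) it was 1 with normexp (0.851% of all genes lower) and 1 without the filter (0.773%). It was 4 there with slide as a fixed block (2.63%) and 5 as a random block (1.4%). With WT marrow (8 called) it was 4 centred on medians (2 of them higher, with 8.87% of all genes lower) and 5 with normexp (1.68%). It was 0 there with slide as a fixed (0.072%) or a random block (0.195%). Centring on medians moved the median member to -0.012 averaged over both marrows, 0.25 with WT marrow, 0.42 between KO_untreated and WT_untreated mice and -0.55 for the difference in treatment effects, and normexp moved it to -0.83 with WT marrow, 0.23 between KO_AOMDSS and WT_AOMDSS mice and 0.38 for that difference. Within slide 2, KO_AOMDSS 3 and WT_AOMDSS 3 differed in 26 members, with a median of -0.45. The median of all genes differed there by -0.29, and most of the genes called there lay outside the respiratory chain. The slide 2 counts have 1 mouse in an arm and take their spread from other arrays, so they say nothing about variation among treated mice. The count of 26 sets 1 mouse against 1 mouse, so it is no test of the donor and shows no donor difference. Leaving out 1 array at a time gave 11 to 41 called members averaged over both marrows, 1 to 30 with WT marrow, 1 to 10 with KO marrow, and 0 to 1 between untreated mice. The highest of the 3 treatment counts each came without WT_AOMDSS 3. The shares of all genes lower were then 27.4% averaged over both marrows, 26.2% with WT marrow and 2.42% with KO marrow. With WT marrow the count was 1 without WT_AOMDSS 1 (1.22% of all genes lower), WT_untreated 1 (1.06%) or WT_untreated 2 (1.13%). With KO marrow it was 1 without any single KO_AOMDSS or KO_untreated mouse or without WT_untreated 1 or 2 (0.36% to 1.07%). The 1 between untreated mice came without KO_untreated 1, where 1682 genes were called in all. Signs turned for Atp5c1 with WT marrow centred on medians (0.036), for Cox8b with normexp (0.47 with WT marrow, 0.41 averaged), and for Atp5h (0.13) and Cox7c (0.25) with slide as a fixed block. Among the isoform ratios, which were added after seeing the data, normexp turned Cox4i2 over Cox4i1 (1.50), Cox6a2 over Cox6a1 (0.39), Cox6b2 over Cox6b1 (0.60) and Cox8b over Cox8a (1.06), slide 2 alone turned Cox4i2 over Cox4i1 (1.29) and Cox6b2 over Cox6b1 (1.71), and Cox6b2 over Cox6b1 was 0.028 without WT_AOMDSS 2 and -0.88 without WT_AOMDSS 3 (exact permutation p = 0.00866, unadjusted). The cause was not tested.

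The labels do not say whether replicate numbers pair the mice. Same-numbered arrays correlated in their deviations at -0.38 to 0.51, over 0.1 in 7 of 18 pairs. Differently numbered arrays passed 0.1 in 19 of 36 pairs. Some pairs of both kinds also shared a slide, so the correlations do not settle the pairing. With a replicate block 21 members were called lower averaged over both marrows (11.6% of all genes lower). The counts were 8 with WT marrow (6.73%) and 2 with KO marrow (1.25%). The probes of Cox6a2, Cox8b and Cox4i2 were dim, and the part of signal depth in their shifts was not tested.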
